A study of Mus musculus with 5 samples.

Results

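Macrophages can send the amino acid arginine down competing routes, and 6 genes of those routes and of itaconate synthesis were followed here in macrophages with and without MyD88. They were chosen by name: Arg1, Arg2, Nos2, Slc7a2, Odc1 and Acod1 were measured, out of 7 listed genes and of 19505 genes on the array. The seventh, Ass1, which encodes argininosuccinate synthase, was not analysed here. Each of the 6 genes was read by a single probe set, and values are log2 of the RMA signal, a background-corrected and quantile-normalized array intensity.

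The samples were 3 arrays from MyD88-ko mice and 2 arrays from WT mice, all of strain C57BL/6 and 6 to 12 weeks old, female or male. B16-F10 mouse melanoma cells had been injected subcutaneously into every mouse. Sorting on day 15 kept cells that bore CD45, CD11b and F4/80 (the product of Adgre1) and lacked CD3, B220 and NK1.1. The labels call them tumour-associated macrophages, whereas the growth protocol takes them from spleen, and the series design names the mice MyD88-null without giving the deleted exons. Whether each array came from its own mouse is not stated, so the p-values reflect the spread among the arrays alone, and that spread may be technical.

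Arginase, made from Arg1 in the cytosol and from Arg2 in mitochondria, splits arginine into urea and ornithine, and ornithine decarboxylase (Odc1) turns ornithine into the polyamine putrescine. Inducible nitric oxide synthase (Nos2) spends arginine on nitric oxide instead, and the transporter CAT2 (Slc7a2) brings arginine into the cell. Aconitate decarboxylase (Acod1, formerly Irg1) makes itaconate from an intermediate of the citric acid cycle. In mouse macrophages Nos2 and Acod1 are classically induced by Toll-like receptor ligands and interferon, Arg1 by interleukin-4 and interleukin-13, and MyD88 is the adaptor of most Toll-like receptors and of the IL-1 receptor family. The comparison asked how these genes stood in macrophages that lack this adaptor.

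Of the 6 genes, Arg2 fell in MyD88-ko macrophages and the other 5 did not pass the test (limma over all 19505 genes, Benjamini-Hochberg adjusted p under 0.05). None of the 5 arrays had Arg2 above background, a limit set from negative controls and defined with the array checks, and its call was lost without any 1 of them (limma, adjusted p = 0.062 to 0.49). Over all genes 0.19% passed, and 36 of those 37 genes were lower, but 0 or 1 passed with an array left out. The log2 difference between MyD88-ko and WT was negative for 5 of the 6 genes and positive for Slc7a2. The median over the 6 genes was -0.90, against 0.015 over all genes. Without MyD88-ko replicate 2 this median was -0.22. Acod1 had the largest difference of the 6, and Odc1 the smallest.

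**Figure D1:**
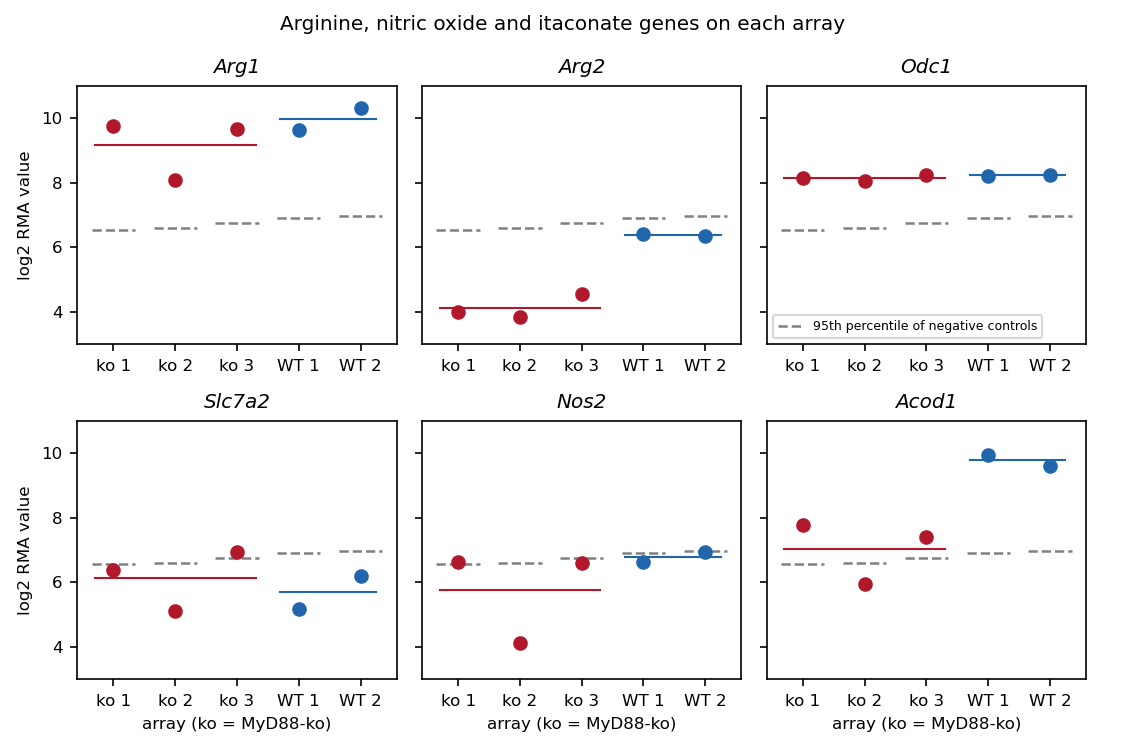
Log2 RMA values of the 6 genes (vertical axis) on the 3 MyD88-ko arrays (red, ko) and the 2 WT arrays (blue). Points are arrays, solid lines are group means, and dashed lines mark, for each array, the 95th percentile of its negative controls. Every red point of Arg2 and of Acod1 lies below both blue points, and MyD88-ko replicate 2 is the lowest array for all 6 genes.

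The arrays carried macrophage signal and also signal of other cells. A probe set was taken as above background on an array when it exceeded the 95th percentile of 5222 negative-control probe sets there, a limit between 6.55 and 6.96, and 75.9% of all genes exceeded it on no array. Of 11 measured macrophage markers, 10 were above it on all 5 arrays, while none of 8 T and NK cell markers and none of 4 B cell markers were above it on any. Of 9 markers of B16 melanoma, 6 were above it on all arrays and 1 on none. The brightest, Tyrp1, averaged 10.61 in MyD88-ko and 10.68 in WT, at the 99.6th percentile of all genes by mean level. The targeted gene, Myd88, was above the limit on every array, at 7.73, 7.01 and 7.58 in MyD88-ko and 8.46 and 8.40 in WT. Its difference missed the threshold (limma, adjusted p = 0.179).

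The arginase genes were first compared. Arg2, the mitochondrial arginase, read 3.99, 3.86 and 4.55 on the MyD88-ko arrays and 6.42 and 6.34 on the WT arrays. All 3 MyD88-ko values were lower than both WT values, and the nearest pair of arrays was 1.79 apart. MyD88-ko averaged 4.13 ± 0.37 (SD, n = 3) and WT 6.38 ± 0.054 (SD, n = 2), a log2 difference of -2.24 with a 95% interval of -2.77 to -1.72 (limma, adjusted p = 0.036). Arg2 had the 20th lowest p-value of the 19505 genes.

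Signal for Arg2 was under the background limit on all 5 arrays, so no fold is given for it. Among the negative controls it reached percentiles of 65.6, 62.5 and 72.8 on the MyD88-ko arrays and of 92.1 and 91.5 on the WT arrays. With each array left out in turn the difference for Arg2 stayed between -2.45 and -2.11. Besides those fits, its call was lost with array weights, with all rows of the table in the fit and with a covariate made of 3 Y-linked genes (limma, adjusted p = 0.063, 0.102 and 0.104).

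Arg1, the cytosolic arginase of alternatively activated macrophages, was well above background everywhere. It read 9.78, 8.10 and 9.67 in MyD88-ko and 9.63 and 10.31 in WT. MyD88-ko replicates 1 and 3 lay between the WT arrays, so the groups overlapped, and MyD88-ko replicate 2 stood apart at the bottom. MyD88-ko averaged 9.18 ± 0.94 (SD, n = 3) and WT 9.97 ± 0.49 (SD, n = 2), and the difference of -0.79 did not pass (95% interval -2.07 to 0.49; limma, adjusted p = 0.588). Without MyD88-ko replicate 2 it was -0.25, and without WT replicate 2 it was -0.44. Turned from log2 into folds, the interval holds values from a 4.20-fold lower to a 1.41-fold higher level in MyD88-ko, so these arrays settle neither a change nor its absence for Arg1.

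Downstream of arginase, Odc1 hardly varied. The enzyme's transcript read 8.15, 8.05 and 8.25 in MyD88-ko and 8.21 and 8.25 in WT, above background on every array and with overlapping groups. The whole range over the 5 arrays was 0.21. The log2 difference was -0.084 with an interval of -0.35 to 0.18 (limma, adjusted p = 0.783) and ran from -0.14 to -0.033 with single arrays left out, so a change larger than 1.27-fold lower or 1.13-fold higher lies outside the interval.

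Nos2 and Slc7a2, the nitric oxide synthase and the transporter that supplies it, were close to the background limit. Nos2 read 6.61, 4.12 and 6.58 in MyD88-ko and 6.63 and 6.94 in WT, and passed the limit only on MyD88-ko replicate 1. Its groups did not overlap, but the highest MyD88-ko array lay only 0.015 under the lowest WT array. MyD88-ko averaged 5.77 ± 1.43 (SD, n = 3) and WT 6.79 ± 0.22 (SD, n = 2). The difference was -1.01, short of the threshold (limma, adjusted p = 0.622), and it was -0.19 without MyD88-ko replicate 2.

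Slc7a2 read 6.36, 5.09 and 6.93 in MyD88-ko and 5.18 and 6.19 in WT, and was above the limit only on MyD88-ko replicate 3. Both WT values lay within the MyD88-ko range. MyD88-ko averaged 6.13 ± 0.94 (SD, n = 3) and WT 5.69 ± 0.72 (SD, n = 2), a difference of 0.44 that did not pass (limma, adjusted p = 0.779). Single arrays decided its sign and size: it was -0.065 without WT replicate 1, 0.042 without MyD88-ko replicate 3, 0.96 without MyD88-ko replicate 2 and 0.95 without WT replicate 2. Signal of the 3 Y-linked genes averaged 4.59 to 5.51 over the MyD88-ko arrays and 5.89 and 6.03 in WT. On every array this average was under the background limit. With that average as a covariate the differences were -0.44 for Slc7a2, -1.97 for Nos2 and -1.32 for Arg1, none of which passed.

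Acod1, the itaconate-forming enzyme, showed the widest separation. It read 7.78, 5.96 and 7.39 in MyD88-ko and 9.94 and 9.60 in WT. The highest MyD88-ko array was 1.82 below the lowest WT array. MyD88-ko averaged 7.04 ± 0.96 (SD, n = 3) and WT 9.77 ± 0.24 (SD, n = 2), a 6.63-fold lower level in MyD88-ko with a 95% interval of 2.78-fold to 15.8-fold. MyD88-ko replicate 2 was under the background limit and the other 4 arrays were above it.

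The difference for Acod1 of -2.73 did not pass over all genes (limma, adjusted p = 0.145; unadjusted p = 0.0017), although it was larger than that of Arg2. The SD among MyD88-ko arrays was 0.96 for Acod1 and 0.37 for Arg2. Over the 5 fits that each left out an array the difference for Acod1 stayed between -3.10 and -2.19. Arg2, Nos2 and Acod1 were thus the 3 of the 6 genes with groups that did not overlap, all lower in MyD88-ko. Of all genes, 27.8% had groups without overlap and 12.9% had them with MyD88-ko lower.

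Promoter sequence is shown for Acod1 and Odc1, the measured genes matched in the promoter table used here, whose differences were the largest and the smallest in size of the 6. The 250 bases before the start are given 5′ to 3′, from RefSeq on GRCm38.p6, at chr14:103046762-103047011 for Acod1 and chr12:17544623-17544872 for Odc1, both on the plus strand. Capitals mark matches on either strand to GGGNNNNNCC, a loose form of the site bound by NF-κB, to the TATA box letters TATAAA, to the AP-1 letters TGANTCA, to the STAT site TTCNNNGAA, to the C/EBP letters TTGCNNAA or to the E-box CACGTG.
Acod1: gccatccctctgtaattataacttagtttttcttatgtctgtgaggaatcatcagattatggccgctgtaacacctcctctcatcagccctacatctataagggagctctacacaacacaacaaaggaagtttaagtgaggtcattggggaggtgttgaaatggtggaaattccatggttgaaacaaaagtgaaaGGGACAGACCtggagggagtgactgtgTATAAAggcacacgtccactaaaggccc
Odc1: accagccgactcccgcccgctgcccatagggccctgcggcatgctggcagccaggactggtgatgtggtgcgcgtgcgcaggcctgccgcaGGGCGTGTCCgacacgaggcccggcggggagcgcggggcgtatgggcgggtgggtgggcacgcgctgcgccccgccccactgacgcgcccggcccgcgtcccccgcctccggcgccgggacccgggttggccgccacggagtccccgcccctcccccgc
The Acod1 window held 1 match to GGGNNNNNCC, at bases 55 to 46 before the start, and 1 to TATAAA, at bases 28 to 23 before it, and these did not overlap. The Odc1 window held 1 match to GGGNNNNNCC and none to TATAAA. Neither held a match to the other 4. Of 32851 windows of the same length, 45.8% held GGGNNNNNCC, 12.4% TATAAA, 6.75% TGANTCA, 7.02% TTCNNNGAA, 9.56% TTGCNNAA and 6.02% CACGTG, so the match to GGGNNNNNCC is common.

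**Figure D2:**
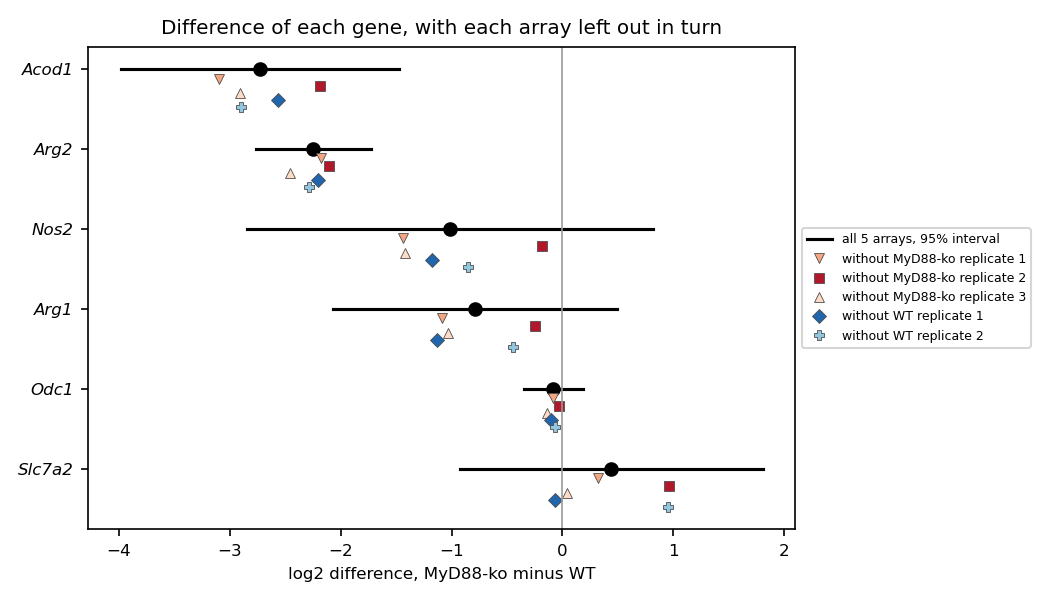
Log2 difference between MyD88-ko and WT for the 6 genes (horizontal axis), as a black point with its 95% interval from the fit of all 5 arrays, and as coloured symbols with each array left out in turn. Acod1 and Arg2 stay below -2 in each case, while Arg1 and Nos2 move to -0.25 and -0.19 without MyD88-ko replicate 2 and Slc7a2 lies on either side of 0.

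Much of the spread among MyD88-ko arrays came from replicate 2, which was the lowest of the 5 arrays for all 6 genes. Over all genes this array was the lowest for 18.3%. It lay 2.46 below the lower of the other MyD88-ko arrays for Nos2, 1.57 for Arg1, 1.43 for Acod1 and 1.27 for Slc7a2, on the log2 scale. For Arg2 and Odc1 the same gap was 0.13 and 0.10. A gap of at least 1 was seen for 48 of the 19505 genes (0.246%), and for 40 of the 4702 genes above the background limit on at least 1 array (0.851%), a class that holds these 4 genes. In that class MyD88-ko replicate 2 was the lowest array for 23.1%. Nos2, Acod1 and Slc7a2 were under the limit of 6.59 on this array, so their gaps rest on a value within the range of the negative controls, while Arg1 was above the limit on every array.

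Apart from the 6 genes, the widest gaps belonged to the collagen Col3a1 (1.98), the antiviral GTPase Mx1 (1.86), the peptide hormone adrenomedullin, Adm (1.84), and Flrt2 (1.64), all under the limit on this array and named after their values were seen. Of the 48 genes with a gap of at least 1, some besides Arg1 were above the limit on every array. These were Ero1a (1.34), Egln3 (1.21), Slc2a1 (1.16), Cd274 (1.14), Pgm1 (1.14), Cxcl10 (1.09), Mmp12 (1.05), Bst1 (1.01) and Bnip3 (1.01). Gbp2 (1.51), Gbp7 (1.41), Gbp3 (1.31), Gbp4 (1.26) and Gbp9 (1.15) were also among the 48, all under the limit on MyD88-ko replicate 2. The 5 measured fibroblast markers averaged 4.30 on this array and 5.38 and 5.16 on the other MyD88-ko arrays, against 5.53 and 4.99 in WT. Of these markers, 4 exceeded the background limit on no array. The part of fibroblasts, or of any process shared with the other genes named here, in the low values of Nos2, Arg1, Acod1 and Slc7a2 was not tested.

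The genes with the most similar profile over the 5 arrays were then listed for each gene. Likeness was the root mean square distance between log2 values after each gene's own mean was subtracted, among 4635 genes above the limit on at least 1 array. Nearest to Arg1 were Mmp14, a membrane-bound metalloproteinase (distance 0.16), the endoplasmic reticulum oxidase Ero1a (0.20) and the glucose transporter Slc2a1 (0.24), where the median distance was 0.76. Nearest to Nos2 were Arg1 (0.35), Col3a1 (0.36) and Mmp14 (0.39). Slc7a2 was closest to Flrt2 (0.20), the macrophage elastase Mmp12 (0.28) and hexokinase 2, Hk2 (0.39). These profiles share the low value on MyD88-ko replicate 2. Slc7a2 and its neighbours were low on WT replicate 1 as well, where Slc7a2 read 5.18 and Flrt2 5.40 (5.09 and 5.28 on MyD88-ko replicate 2), and Mmp12 was lower there (9.72) than on MyD88-ko replicate 2 (9.95). Odc1, which was nearly flat, was closest to the likewise flat Dido1, Sik3 and Hspa14 (0.017 to 0.026).

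Acod1 was closest to Il1a, which encodes the cytokine IL-1α (distance 0.19), followed by haptoglobin, Hp (0.47), and the receptor Clec4e, or Mincle (0.49), with a median distance of 1.49. Il1a read 5.80, 4.02 and 5.58 in MyD88-ko and 7.85 and 7.24 in WT, low on MyD88-ko replicate 2 as Acod1 was. For Arg2, which was under the limit on all arrays, all genes were searched, a choice made after its values were seen. Nearest were the oxidized LDL receptor Olr1 (0.069), Trem1 (0.13) and Il1b (0.15), with a median distance of 1.14. Their log2 differences were -2.21, -2.20 and -2.33, close to that of Arg2 because they were chosen for a like profile, so no test is given for them.

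**Figure D3:**
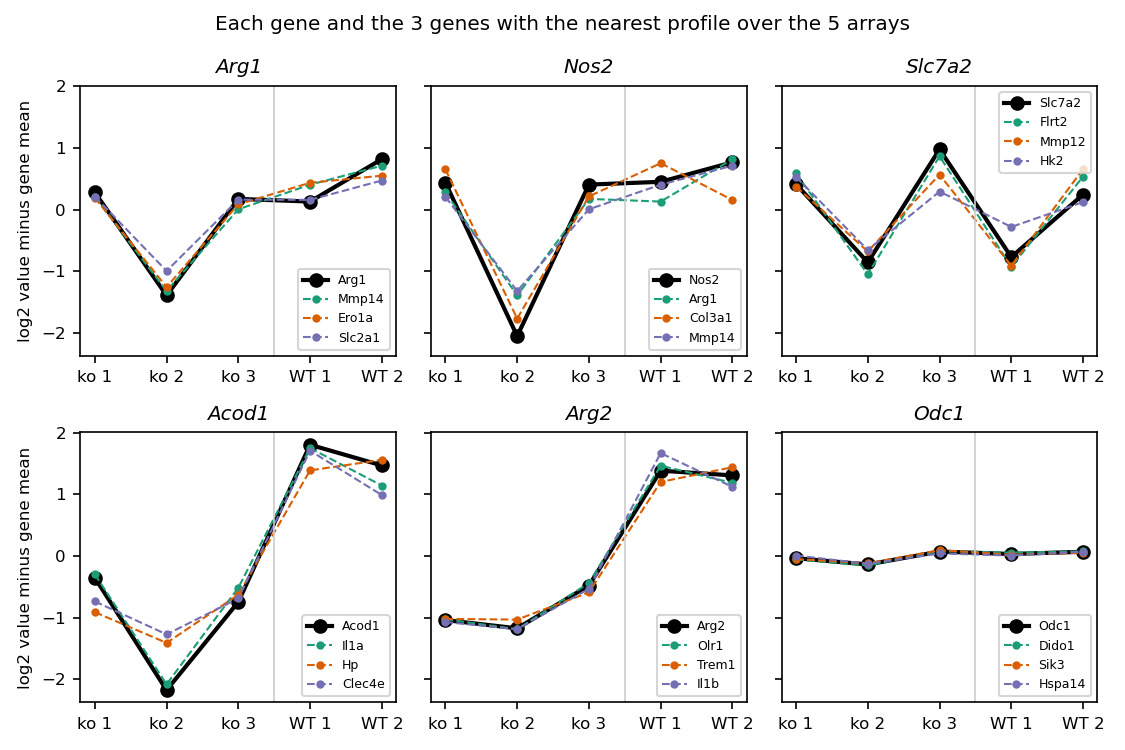
Log2 values minus each gene's mean (vertical axis) on the 3 MyD88-ko (ko) and 2 WT arrays, for each of the 6 genes (black) and its 3 nearest genes (colours). Lines join arrays only to make profiles readable. Arg1, Nos2 and Slc7a2 dip on MyD88-ko replicate 2, Slc7a2 dips on WT replicate 1 too, Arg2 steps down on all 3 MyD88-ko arrays, Acod1 does both, and Odc1 is flat.

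Markers of neutrophils and monocytes were lower on balance in MyD88-ko, as Acod1 and Arg2 were, while those of macrophages were higher on balance. The 14 measured neutrophil markers averaged 4.65 to 4.93 on the MyD88-ko arrays and 6.78 to 7.18 on the WT arrays, and 7 of them fell, a count that single arrays decide, since 0 or 1 of all genes passed with an array left out. With all arrays in the fit, 0.19% of all genes passed. The median difference of the neutrophil markers was -2.12, and 4 of the 14 exceeded the background limit on no array. S100a8, S100a9 and Lcn2 of this list exceeded the limit on both WT arrays and on none of the MyD88-ko arrays. These genes were named for their low p-values. Other genes of the list hardly differed: Camp, Ngp and Ltf, which never reached the limit, had differences of -0.12, -0.33 and 0.11. Mmp8 had one of -0.91, with overlapping groups. Differences were negative for 13 of the 14, against 9152 of all 19505 genes. Groups did not overlap for 11 of the 14, all lower in MyD88-ko. Over all genes 27.8% had groups without overlap, and 12.9% had them with MyD88-ko lower. The 8 measured classical monocyte markers averaged 7.72 to 8.28 in MyD88-ko and 9.26 to 9.43 in WT, with a median difference of -1.65 and 1 gene, Hp, that fell. Of these, F13a1 and Fn1 had differences of only 0.14 and -0.12. Of 11 measured macrophage markers, 8 had positive differences, against 10353 of all 19505 genes. Their median was 0.38, and 0.11 without WT replicate 1. Of 8 conventional dendritic cell markers 7 were negative, against 9152 of all 19505 genes, with a median of -0.28, and 5 exceeded the limit on no array. Groups did not overlap for 6 of the 8 monocyte markers and 3 of the 8 dendritic cell markers, all lower in MyD88-ko. The same held for 9 of the 11 macrophage markers, 3 lower and 6 higher. Hp is also among the nearest genes of Acod1, and Trem1, near Arg2, is in the neutrophil list. The nearest genes were chosen for their profile on these same arrays, so this adds no separate evidence. Il1a, Clec4e, Olr1 and Il1b, also among the nearest, are in neither list. The sort kept cells bearing F4/80, which neutrophils largely lack, but its purity was not tested here. On these same arrays 6 of 9 B16 melanoma markers were above the limit throughout. The part of any of these cell types in the values of Arg2 and Acod1 was not tested, and in sorted bulk RNA fewer cells of a type cannot be told apart from less RNA per cell.

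No gene of 5 lists of related genes passed in either direction, with 92 of 103 genes measured (limma, adjusted p under 0.05), against 0.19% of all genes. At an unadjusted p under 0.05 there were 26 of the 92 (28.3%), 13 lower and 13 higher, against 12.6% of all genes.

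Arginine transport, the urea cycle and creatine synthesis were covered by 14 measured genes, with a median difference of 0.10. It was 0.014 without WT replicate 1 and 0.22 without WT replicate 2. The high-affinity arginine transporter CAT1 (Slc7a1) averaged 7.36 ± 0.089 (SD, n = 3) in MyD88-ko samples and, in WT samples, 6.99 ± 0.19 (SD, n = 2). Gatm and Gamt, which make creatine from arginine and glycine, had differences of 0.69 and 0.54, Gamt under the limit on all arrays. Slc25a15, the mitochondrial ornithine carrier, was at 5.08 and 4.80, under the limit on all arrays. The groups of Slc7a1, Gatm and Gamt did not overlap, and none of these 4 genes, named for their low p-values, passed (limma, adjusted p = 0.189 to 0.515). In the list 4 of 14 genes (28.6%) had groups without overlap, close to the 27.8% of all genes. Argininosuccinate lyase (Asl), which acts after Ass1, stood at 6.63 and 6.53.

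Polyamine and proline enzymes had a median of 0.16 over 15 measured genes, and 0.072 without WT replicate 1, whereas Smox and Sat1, which break polyamines down, had negative differences. Spermine oxidase, Smox, read 8.27, 7.86 and 8.35 in MyD88-ko and 9.23 and 9.26 in WT. Its arrays did not overlap, and the level was 2.12-fold lower in MyD88-ko (limma, adjusted p = 0.111). The acetyltransferase Sat1 read 9.38, 9.24 and 9.38 against 10.10 and 9.79, likewise without overlap and 1.53-fold lower (limma, adjusted p = 0.176). Spermidine synthase (Srm) and the proline-forming enzyme Aldh18a1 had differences of 0.40 and 0.33. None of the 4 passed. In this list 5 of 15 genes (33.3%) had groups without overlap, against 27.8% of all genes.

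Among 14 measured genes of nitric oxide synthesis and its cofactor the median was 0.14, and it was 0.013 without WT replicate 2. Gch1, the first enzyme of tetrahydrobiopterin synthesis, which nitric oxide synthases need, read 5.81, 5.80 and 5.99 in MyD88-ko and 6.28 and 6.54 in WT, under the limit on all arrays and without overlap (limma, adjusted p = 0.198). Qdpr, which regenerates that cofactor, and the reductase Cyb5r3 had differences of 0.42 and 0.50. Gucy1b1, a subunit of the nitric oxide receptor, had one of 0.16, under the limit on all arrays. The neuronal and endothelial synthases Nos1 and Nos3 were under the limit on all arrays, with means between 3.03 and 3.26. Groups did not overlap for 4 of the 14 genes (28.6%), against 27.8% of all genes.

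The citric acid cycle genes around Acod1 were slightly higher in MyD88-ko, without passing. Of 25 measured, 22 had positive differences, against 10353 of all 19505 genes, the median was 0.16, and it ranged from 0.15 to 0.20 with single arrays left out. Groups did not overlap for 11 of the 25 (44%), all higher in MyD88-ko. Over all genes 27.8% had groups without overlap, and 2891 of 19505 had them with MyD88-ko higher. The isocitrate dehydrogenases Idh1 and Idh2 had differences of 0.57 and 0.42, Ogdh of 0.48 and Suclg1 of 0.42 (limma, adjusted p = 0.231 to 0.367). Idh1 read 8.77, 8.93 and 8.95 in MyD88-ko and 8.01 and 8.62 in WT, so WT replicate 1 was the lowest array and WT replicate 2 lay near the MyD88-ko arrays. Succinate dehydrogenase, the enzyme that itaconate inhibits, had subunit differences of 0.48 (Sdha), 0.082 (Sdhb), 0.14 (Sdhc) and 0.31 (Sdhd), with Sdha under the limit on all arrays.

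Factors and receptors known to act on Arg1, Nos2 or Acod1 were lower on balance, with 17 of 24 negative, against 9152 of all 19505 genes, and a median of -0.20, which was -0.046 without WT replicate 2 and -0.33 without WT replicate 1. Tnf read 8.09, 7.42 and 7.68 in MyD88-ko and 9.40 and 8.92 in WT, a 2.69-fold lower level (limma, adjusted p = 0.123). Il13ra1, a receptor chain for interleukin-13, averaged 6.54 ± 0.35 in MyD88-ko (SD, n = 3) against 7.90 ± 0.23 in WT (SD, n = 2; limma, adjusted p = 0.123). Hif1a, the oxygen-regulated factor, and Tlr2 had differences of -0.74 and -0.67. In these 4 genes every MyD88-ko array was lower than both WT arrays, but they were named for the lowest p-values of the list. Of the 24 genes 13 had groups without overlap, 11 of them lower in MyD88-ko. Over all genes these shares were 27.8% and 12.9%.

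Il4ra and Stat6, which carry the interleukin-4 signal, had differences of -0.15 and -0.12, and the lineage factor Spi1 one of -0.035. Epas1, named after its values were seen, had the largest positive difference of the list, 1.32, with means of 5.35 and 4.03 under the limit (limma, adjusted p = 0.314).

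**Figure D4:**
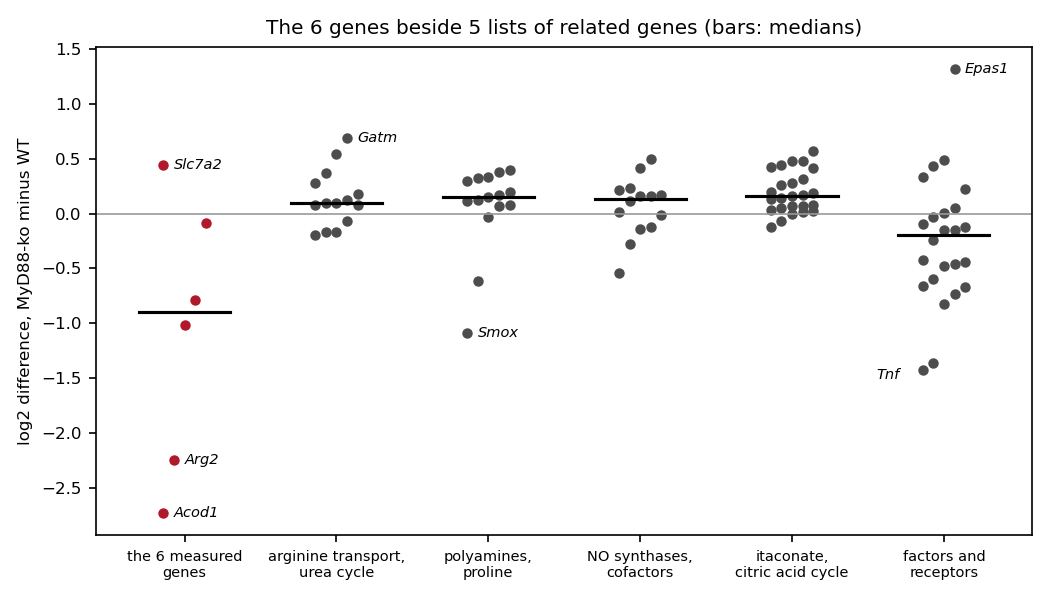
Log2 difference between MyD88-ko and WT (vertical axis) for the 6 genes (red) and for the measured genes of 5 related lists (grey), with bars at the medians. The medians of the lists lie between -0.20 and 0.16, against -0.90 for the 6 genes, and Arg2 and Acod1 are lower than every gene of the 5 lists.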

How the data were processed

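RNA from 3 MyD88-ko and 2 WT samples was hybridized to Affymetrix mouse arrays after 100 ng of total RNA had been made into biotin-labelled cDNA, per the labels' protocols. The authors deposited log2 values. Per the submitters' processing notes these came from RMA, run in Affymetrix Expression Console 1.1. RMA shrinks differences of dim probe sets. The genome build was not given in the sources used here. There is no read depth, and the number of arrays limits precision.

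Of 28846 rows, 19572 had 1 gene symbol, none had several and 9274 had none. All 19572 identifiers matched the RefSeq table and no symbol changed. For 55 genes with several probe sets the one with the highest mean was kept, leaving 19505 genes. limma 3.58.1 (lmFit and eBayes in R 4.3.3) fitted these, genotype as the only term and no filter, with Benjamini-Hochberg adjustment over all genes. The script was tested on simulated data. SDs are over arrays, and intervals are 95% intervals of the fit.

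The members, lists, tests and alternatives were chosen with earlier results of these data known. Named were the 6 genes, Myd88, up to 4 genes of lowest p in each list, and the 3 nearest profiles per gene (predicted genes left out). Other genes named in the text, among them those with low values on MyD88-ko replicate 2, were chosen after their values were seen.

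Alternatives were 3 normalizations, 2 filters, averaged probe sets, array weights, trended or robust moderation, a replicate block, a covariate for 3 Y-linked genes (their mean), leaving out each array, and fitting all rows.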

Additional observations from a re-analysis of the deposited data

How the results depend on the processing

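Of the 6 genes, 1 (Arg2) passed with all arrays, and again under equal medians, repeated quantile normalization, cyclic loess, both filters, averaged probe sets, robust or trended moderation and the replicate block. None of the 6 passed with array weights, with the Y-linked covariate or with all rows in the fit (limma, adjusted p for Arg2 = 0.063, 0.104 and 0.102), and 0 passed without each array in turn, with 2 of the 6 at an unadjusted p under 0.05 in each of these fits, against 1691 to 3762 of the 19505 genes. Over all genes the 37 calls became 60 with equal medians, 56 with quantile normalization, 65 with cyclic loess, 15 with array weights, 3 with all rows and 0 with the Y-linked covariate, where 1818 had an unadjusted p under 0.05. Leaving out single arrays gave 0 to 1 calls. Fits with a single WT array take its spread from the MyD88-ko arrays. Arg1, Arg2, Nos2, Odc1 and Acod1 kept their sign in all 17 alternatives. Slc7a2, which ranged from -0.065 to 0.96 with single arrays left out, turned to -0.44 with the Y-linked covariate and to -0.065 without WT replicate 1; the cause was not tested.

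With the replicate block 70 genes passed, and of the 6 genes Arg2 again. MyD88-ko replicate 3 has no WT partner, so this fit took no difference from it. Deviations from group means correlated at 0.059 for replicate 1 and 0.10 for replicate 2. With 2 WT arrays the WT deviations mirror each other, so these values are not separate checks. They cannot decide whether the replicate numbers mark pairs. The mean of the Y-linked genes was 4.59 to 5.51 in MyD88-ko and 5.89 to 6.03 in WT, so that covariate and genotype cannot be cleanly told apart. This mean was under the background limit on every array. Signal over background limits Arg2, Nos2 and Slc7a2, which were under the limit on at least 4 of 5 arrays.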
